A study of Rattus norvegicus with 48 samples.

Results

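The middle dose of thioacetamide (TAA) given for 28 days was compared with vehicle in rat liver, in 6 of the 48 miRNA-seq libraries of the series. The 3 treated libraries (middle dose 28-d, replicates 37, 38 and 39) came from male Sprague-Dawley rats that received TAA at 15 mg/kg once a day, and the 3 control libraries (control 28-d, replicates 16, 17 and 18) from rats of the same sex and strain that received vehicle alone for as long. Liver tissue was used, the 3 libraries of a group are described as biological replicates, and no further allele or agent is named. The series also holds a low dose (4.5 mg/kg) and a high dose (45 mg/kg) and shorter exposures, which were used here only where they show how the middle dose at 28-d differed from them. TAA is a liver toxicant that is activated in hepatocytes and causes necrosis, bile duct proliferation, fibrosis and, after long exposure, tumours in rats.

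miRNAs are short RNAs cut from hairpin precursors. The strand of the hairpin that is loaded into an Argonaute protein pairs, mainly through its seed (bases 2 to 8), with messenger RNAs and lowers their output, so miRNAs with the same seed share many targets. The 5p and 3p names give the arm of the hairpin a miRNA comes from. Hairpins that lie close together are often made from a common transcript. Liver has a characteristic set of abundant miRNAs, among them miR-122, miR-192, miR-22 and miR-148a, and injured liver also holds reads from bile duct, stellate, blood and inflammatory cells. In such bulk tissue, fewer cells of a type and less of a miRNA in each cell cannot be told apart.

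Mature sequences are shown here for the miRNAs on which the results turn, from 5′ to 3′ with the seed in capitals, as listed by RefSeq with the GRCr8 assembly. The first group holds the miR-34 family seed, shared by a p53-induced miRNA and its relatives, and the seed of the miR-99 and miR-100 family.
miR-34a-5p: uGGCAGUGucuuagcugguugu
miR-34c-5p: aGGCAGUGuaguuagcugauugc
miR-449a-5p: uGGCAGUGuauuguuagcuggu
miR-99b-5p: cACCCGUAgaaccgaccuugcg
miR-100-5p: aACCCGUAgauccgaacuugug
The second group holds other miRNAs that were higher in the treated rats, with seeds that differ from each other.
miR-501-3p: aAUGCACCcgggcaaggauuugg
miR-6329: aAUGUGACucagcuaucugaaca
miR-212-5p: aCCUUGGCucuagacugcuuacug
miR-132-3p: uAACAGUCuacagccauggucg
miR-190b-5p: uGAUAUGUuugauauuagguu
miR-7a-5p: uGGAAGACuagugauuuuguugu
miR-466b-5p: uAUGUGUGuguguauguccaug
The third group holds miRNAs that were lower, including both arms of the miR-122 hairpin, both passenger strands of miR-30c, and miR-26b-5p, which has the seed of miR-26a-5p but did not meet the criteria for a change.
miR-26a-5p: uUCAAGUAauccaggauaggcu
miR-26b-5p: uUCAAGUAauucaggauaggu
miR-22-3p: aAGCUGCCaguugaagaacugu
miR-193a-3p: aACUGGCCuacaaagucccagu
miR-122-5p: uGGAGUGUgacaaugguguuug
miR-122-3p: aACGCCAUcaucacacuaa
miR-30c-1-3p: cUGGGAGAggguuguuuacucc
miR-30c-2-3p: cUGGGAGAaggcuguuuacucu

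The 6 libraries held between 7665439 and 14373693 counted reads, and the lowest total belonged to control replicate 18. Of the 664 mature miRNAs with a read in the series, 455 to 467 had a read in each control library and 505 or 506 in each middle dose library. Tests covered 301 miRNAs that reached 5 RPM (counted reads scaled to a common total) in 3 or more of all 48 libraries, and 299 of them had a read in all 6 libraries. Values are upper quartile normalized RPM within these 6 libraries unless stated otherwise. The normalization factors were between 0.865 and 0.962 in the controls and between 1.06 and 1.18 in the treated rats, so a treated value was scaled down relative to its plain RPM and a control value up. The marker miRNAs of liver were abundant in every library. miR-192-5p was at 203935 to 241895 normalized RPM and miR-122-5p made up 2.23% to 3.45% of the counts. Across miRNAs, Pearson's r of log2 (normalized RPM + 1) was 0.992 to 0.9934 between control rats, 0.9948 to 0.9959 between treated rats and 0.9735 to 0.9842 between a control and a treated rat.

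At the middle dose, 99 of the 301 miRNAs were differentially expressed (DEMs: edgeR quasi-likelihood test, unadjusted p-value below 0.05 and fold change above 1.5), 63 of them higher (20.9% of those tested) and 36 lower (12%). Of these, 91 had an edgeR adjusted p-value (Benjamini-Hochberg) below 0.05, 58 higher and 33 lower. The treated and control values did not overlap in 146 miRNAs (48.5%), of which 87 were higher and 59 lower, and in 92 of the 99 DEMs. A fold change above 2 was found for 34 higher and 6 lower DEMs, and above 4 for 5 higher and 0 lower DEMs. The median log2 fold change of all tested miRNAs was 0.02. With plain library size in place of upper quartile scaling this median moved to 0.30, and the split became 100 higher and 15 lower DEMs. With TMM normalization it was 54 and 42, and with DESeq2's size factors 55 and 39.

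The median abundance of higher and lower DEMs differed, while their ranges overlapped. The higher DEMs had a median control level of 12.4 normalized RPM, the lower DEMs of 194, and all tested miRNAs of 55.5. Of the 70 tested miRNAs below 10 normalized RPM in the controls, 28 were higher and 3 lower DEMs. Of the 51 above 1000, 6 were higher and 12 lower. A miRNA below 5 RPM in the controls entered the tests only through libraries of other groups, the treated rats included. The counts of rare DEMs and the median control levels are therefore not independent of the filter. Summed over its members, the higher class went from 2.12% of the counts in the controls to 5.26% in the treated rats, and the lower class from 36.9% to 26.7%.

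**Figure D1:**
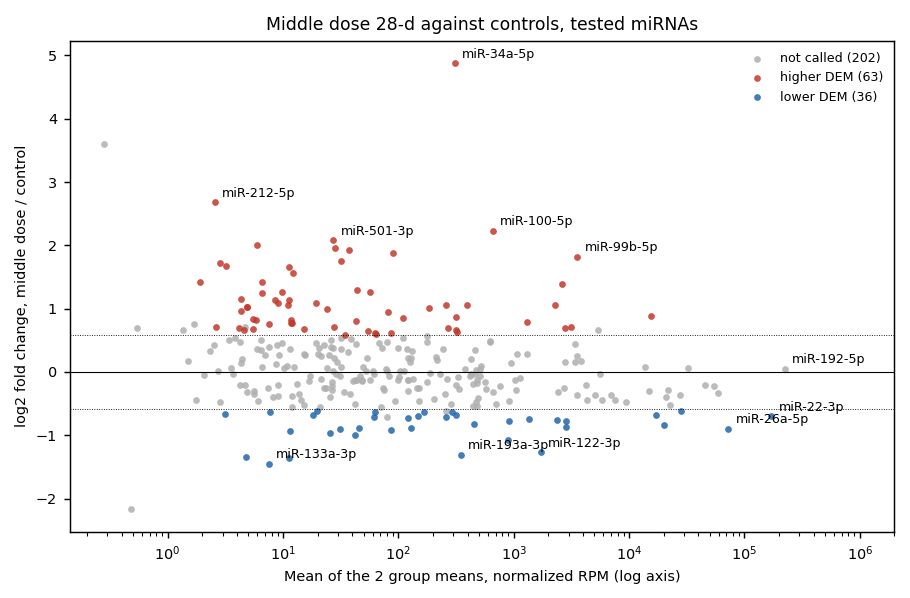
Each point is 1 of 301 tested miRNAs, with the mean of the control and treated group means in normalized RPM on a log axis and the log2 fold change of the middle dose over control on the vertical axis; dotted lines mark a fold change of 1.5. Red points (63 higher DEMs) reach a log2 fold change of 4.88 at miR-34a-5p, whereas blue points (36 lower DEMs) reach -1.45 and include very abundant miRNAs such as miR-22-3p and miR-26a-5p.

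miR-34a-5p, a transcriptional target of p53 that restrains the cell cycle, changed most among the DEMs. Its normalized RPM was 24.4, 14.6 and 22.2 in the controls and 633, 414 and 752 in the treated rats. The lowest treated rat was far above the highest control. The mean rose from 20.4 ± 5.09 to 600 ± 171 (mean ± SD, n = 3 per group), with 4.88 as log2 fold change (SE 0.30, adjusted p = 1.33e-06 by edgeR). The other arm of this hairpin, miR-34a-3p, was too rare to be tested. It had 0, 4 and 4 raw reads in the controls and 34, 18 and 37 in the treated rats. The relatives that share the miR-34a seed had smaller log2 fold changes, and this difference was not tested. miR-449a-5p, a miRNA of ciliated epithelia, rose from 1.53 ± 0.219 to 4.93 ± 0.386 normalized RPM (mean ± SD, n = 3 per group), with 1.67 as log2 fold change (SE 0.26, adjusted p = 0.00102 by edgeR). On the scale of all 48 libraries its 28-d controls, at 1.34 to 1.79, lay below the 8 controls of other time points used here, at 1.89 to 4.04, and with all 12 controls pooled its log2 fold change was 0.94. miR-34c-5p was at 40.4, 21.6 and 15.9 normalized RPM in the controls and at 44.8, 35.2 and 34.3 in the treated rats, so the groups overlapped and it was not a DEM (edgeR adjusted p = 0.167). Its level in the same 8 controls, scaled over all 48 libraries, was 46 to 63.3, higher than in all 6 rats at 28-d on that scale.

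miR-100-5p and miR-99b-5p share a seed, and with miR-99a-5p they form a family that is linked to mTOR signalling. All 3 rose in every treated rat. miR-100-5p went from 228, 253 and 217 normalized RPM to 1151, 1225 and 907, with 2.23 as log2 fold change (SE 0.19, adjusted p = 1.7e-05 by edgeR). miR-99b-5p went from 1521, 1800 and 1401 to 6148, 5396 and 5088, with 1.82 as log2 fold change (SE 0.17, adjusted p = 3.52e-05 by edgeR). miR-99a-5p went from 1509, 1427 and 1392 to 4140, 4128 and 3064, with 1.39 as log2 fold change (SE 0.17, adjusted p = 0.000315 by edgeR). For each of them the lowest treated rat was above the highest control. In the cluster of miR-99b, let-7e and miR-125a, let-7e-5p fell (log2 fold change -0.63, edgeR adjusted p = 0.0367) and miR-125a-5p was at a log2 fold change of 0.15 (edgeR adjusted p = 0.568). Of the 12 tested members of the miR-99, miR-100, miR-125 and miR-10 families, 4 were higher and 1 was lower, with a median log2 fold change of -0.01, which was 0.26 on library size alone. Over all tested miRNAs, 20.9% were higher and 12% lower DEMs. The fourth higher member was miR-125b-5p (log2 fold change 0.70, edgeR adjusted p = 0.0175), which lost its call without middle dose replicate 38. Without control replicate 18 or middle dose replicate 39 let-7e-5p lost its call too.

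miR-501-3p belongs to a set of X-linked hairpins with miR-532, miR-188, miR-362 and miR-500. It went from 8.12, 12.7 and 10.5 normalized RPM to 44.2, 45.8 and 42.6, with 2.08 as log2 fold change (SE 0.20, adjusted p = 3.53e-05 by edgeR), and the treated rats lay within a narrow range. miR-362-5p went from 6.19, 5.34 and 4.81 to 21.3, 16.1 and 14.2 (log2 fold change 1.65, edgeR adjusted p = 0.000417). In the cluster as matched in RefSeq, the other tested members, miR-532-5p, miR-532-3p, miR-188-5p, miR-362-3p and miR-500-3p, had log2 fold changes between -0.29 and 0.07 and were not DEMs. Of the 6 matched members, 1 was a DEM, and miR-362-5p, which was not matched by name, was a further one.

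The miR-132 and miR-212 hairpins, which are induced by the transcription factor CREB, gave 2 higher members of 3 tested, with a median log2 fold change of 1.42. The share of higher DEMs over all tested miRNAs was 20.9%. miR-212-5p was rare, with 0.724, 0.829 and 0.438 normalized RPM (9, 9 and 3 raw reads) in the controls and 3.39, 4.91 and 5.13 (51, 67 and 79 raw reads) in the treated rats. Its log2 fold change came to 2.68 (SE 0.35, adjusted p = 0.000369 by edgeR), and the groups did not overlap. miR-132-3p rose from 3.59 ± 0.502 to 9.58 ± 0.921 normalized RPM (mean ± SD, n = 3 per group, log2 fold change 1.42, edgeR adjusted p = 0.00101). miR-212-3p was at a log2 fold change of 0.75 (edgeR adjusted p = 0.126).

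Among the higher DEMs with the smallest p-values were also miR-6329, miR-190b-5p and miR-7a-5p. miR-6329, a miRNA annotated in rat, went from 43.1, 37.3 and 34 to 126, 111 and 185 normalized RPM, with 1.88 as log2 fold change (SE 0.22, adjusted p = 0.000207 by edgeR). miR-190b-5p went from 11.3, 14.7 and 18.1 to 61.3, 40.1 and 46.4 (log2 fold change 1.76, edgeR adjusted p = 0.000369). miR-7a-5p, which targets growth factor receptor signalling, went from 31, 20.3 and 24.1 to 71.2, 56 and 58.7 (log2 fold change 1.30, edgeR adjusted p = 0.00101). In none of the 3 did a treated rat fall within the control range. Of the 5 tested miR-7 and miR-190 members, 3 were higher and all 5 had a positive log2 fold change, with a median of 0.82. Among all 301 tested miRNAs, 20.9% were higher DEMs and 156 had a positive log2 fold change. The 2 families were joined in a list because of earlier results of these data, so these values are no independent evidence.

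**Figure D2:**
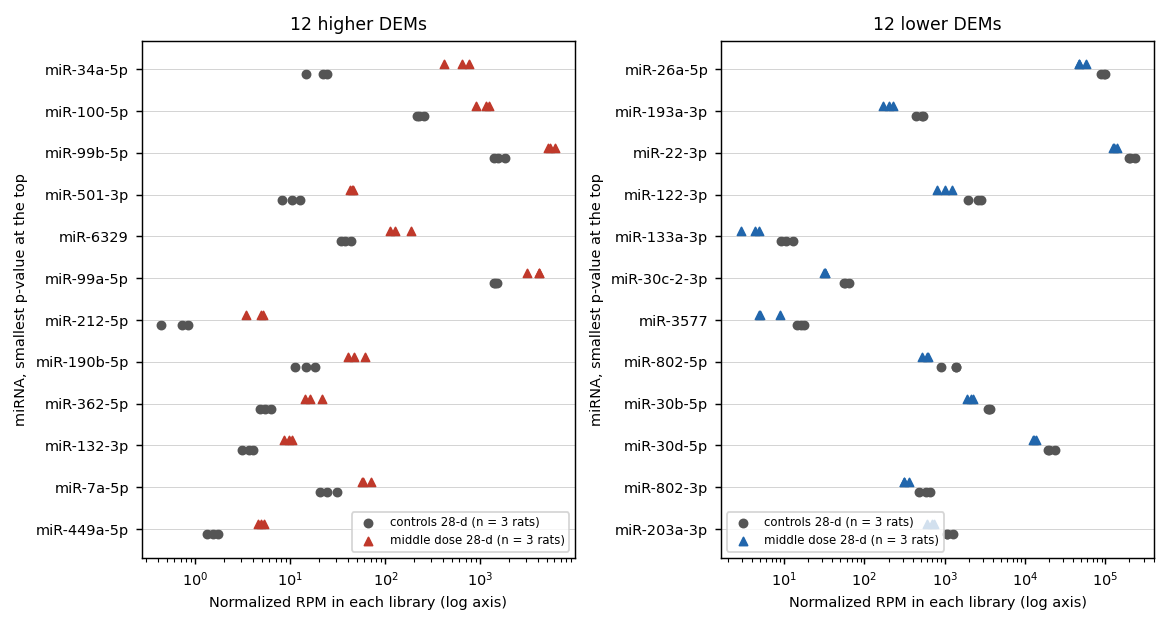
Normalized RPM of each library on a log axis for the 12 higher (left) and 12 lower (right) DEMs with the smallest p-values among those without overlap, with grey circles for the 3 control rats and triangles for the 3 middle dose rats. The gap between the groups is widest for miR-34a-5p, at 14.6 to 24.4 in the controls and 414 to 752 in the treated rats, and narrow for abundant lower miRNAs such as miR-22-3p.

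Several of the most abundant liver miRNAs fell. miR-26a-5p, which restrains cyclins and is lost in liver tumours, went from 89414, 96107 and 98429 normalized RPM to 47741, 57235 and 47637. The log2 fold change was -0.90 (SE 0.12, adjusted p = 0.000444 by edgeR), and the ranges lie far apart. The call of miR-26a-5p was lost with all 12 controls pooled. On the scale of all 48 libraries its 28-d controls, at 91257 to 100457, lay above the 8 controls of other time points, at 64243 to 90114. The treated rats, at 48619 to 58414, lay below both. miR-22-3p, the most abundant miRNA beside miR-192-5p in the controls, went from 232760, 198486 and 203426 to 127329, 138505 and 125388, with -0.70 as log2 fold change (SE 0.11, adjusted p = 0.00102 by edgeR). It did not reach a fold change of 1.5 on plain library size (log2 fold change -0.41) or with the controls of all time points pooled (-0.50). miR-192-5p, miR-148a-3p and miR-10a-5p, the other 3 of the 5 most abundant miRNAs, were not DEMs, with log2 fold changes of 0.05, -0.33 and -0.22 and overlapping groups for each.

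Of 10 tested hepatocyte miRNAs, 5 fell (12% of all tested miRNAs were lower DEMs), 0 rose, and the median log2 fold change was -0.53. On library size alone 2 of them were lower DEMs. The summed plain RPM of the list, of which miR-192-5p was the largest part, was higher in the treated rats, at 326969 to 353317 against 292443 to 316864 in the controls. Both arms of miR-122, which maintains lipid metabolism and hepatocyte identity, were among them. miR-122-3p went from 1928, 2564 and 2822 normalized RPM to 801, 1233 and 1004 (log2 fold change -1.27, SE 0.21, adjusted p = 0.0013 by edgeR). miR-122-5p went from 39912, 28428 and 34415 to 23096, 25206 and 18943 (log2 fold change -0.61, SE 0.16, adjusted p = 0.0164 by edgeR). The treated rats were below the controls in both arms. The call of miR-122-5p was lost under 6 of 19 alternatives, among them library size alone and leaving out control replicate 16 or middle dose replicate 39, and its log2 fold change was -0.77 to -0.33 over the 19. Both arms of miR-802, a miRNA that affects glucose handling in liver, also fell, miR-802-5p from 1218 ± 280 to 577 ± 52.5 normalized RPM (log2 fold change -1.08, edgeR adjusted p = 0.0028) and miR-802-3p from 577 ± 90.9 to 328 ± 28.5 (log2 fold change -0.82, edgeR adjusted p = 0.00737, mean ± SD, n = 3 per group).

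All 11 tested miR-30 family members, which are abundant in epithelia, had a negative log2 fold change, and the median was -0.54. Of the 11, 5 were lower DEMs, against 12% of all tested miRNAs. miR-30b-5p went from 3448, 3682 and 3614 normalized RPM to 2237, 2151 and 1917 (log2 fold change -0.77, edgeR adjusted p = 0.0038). miR-30d-5p went from 19906, 19298 and 23906 to 13020, 13683 and 12619 (log2 fold change -0.68, edgeR adjusted p = 0.0048). Without control replicate 18 its call was lost. The passenger strands miR-30c-2-3p and miR-30c-1-3p, which share a seed, were at log2 fold changes of -0.89 and -0.96. On plain library size, 2 of the 11 were lower DEMs and the median was -0.25, and 2 of the 11 had a positive log2 fold change. Relative to the median of all tested miRNAs, the list was at -0.55 on that scale and at -0.56 with upper quartile scaling.

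miR-193a-3p and miR-365-3p come from neighbouring hairpins and are linked to adipocyte and hepatocyte differentiation. miR-193a-3p went from 434, 539 and 518 normalized RPM to 225, 205 and 171, with -1.31 as log2 fold change (SE 0.18, adjusted p = 0.000463 by edgeR). miR-365-3p fell from 388 ± 30.4 to 243 ± 31.8 (mean ± SD, n = 3 per group, log2 fold change -0.68, edgeR adjusted p = 0.014). The call of miR-365-3p was lost without middle dose replicate 39. The remaining members of this list, miR-193b-3p and miR-193a-5p, had log2 fold changes of 0.38 and -0.03 and were not DEMs. The 12 lower DEMs ranked first by p-value also held miR-203a-3p, a miRNA of differentiating epithelia, at 1145 ± 124 and 673 ± 70.6 normalized RPM (mean ± SD, n = 3 per group, log2 fold change -0.77, edgeR adjusted p = 0.00758), and miR-3577, at 16.1 ± 1.64 and 6.26 ± 2.32 (log2 fold change -1.36, edgeR adjusted p = 0.00265).

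Families known as tumour suppressors are set here beside the 12% of all tested miRNAs that were lower DEMs. Of 6 tested miR-26 and miR-101 members, miR-26a-5p and miR-26b-3p fell and all 6 had a negative log2 fold change, with a median of -0.46. miR-26b-5p was at a log2 fold change of -0.47 (edgeR adjusted p = 0.0316) and did not reach a fold change of 1.5. Of 8 let-7 guide strands with miR-98-5p, let-7f-5p (log2 fold change -0.84, edgeR adjusted p = 0.0132) and let-7e-5p fell, and 1 of the 8 had a positive log2 fold change. The values of let-7f-5p were 25185, 17898 and 34235 in the controls and 15797, 14677 and 12773 in the treated rats, so the spread of the controls was wide, and its call was lost without control replicate 18 and on library size alone. That of let-7e-5p was lost without control replicate 18 or middle dose replicate 39, and that of let-7b-3p without control replicate 17. Of 9 let-7 passenger strands, let-7b-3p fell (log2 fold change -0.71, edgeR adjusted p = 0.0205). The let-7g arms were tested but are on neither list. let-7g-5p was at a log2 fold change of -0.21 and let-7g-3p at 0.51, and neither was a DEM. On library size alone 0 of the 8 listed guide strands were DEMs and their median was -0.05, against -0.34 with upper quartile scaling. Of 5 tested miR-29 members, whose targets include collagens, 0 were DEMs with edgeR, while miR-29c-3p and miR-29a-3p had unadjusted p-values of 0.0164 and 0.0324 at log2 fold changes of -0.48 and -0.36. DESeq2's Wald test also called 0 of the 5. With all 12 controls pooled, 4 of the 5 had a positive log2 fold change, 1 was a higher DEM and the median was 0.16, against -0.36 with the 28-d controls.

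All 3 members of the cluster of miR-183, miR-96 and miR-182, known from epithelia and sensory organs and raised in many tumours, rose. Higher DEMs made up 20.9% of all tested miRNAs. miR-96-5p went from 12.1, 22.8 and 11.8 normalized RPM to 51.8, 42.2 and 84 (log2 fold change 1.92, edgeR adjusted p = 0.00116). miR-182 went from 1093, 1791 and 1584 to 2142, 2515 and 4626 (log2 fold change 1.06, edgeR adjusted p = 0.0175). miR-183-5p went from 79.7, 194 and 93.5 to 201, 198 and 342 (log2 fold change 1.01, edgeR adjusted p = 0.0367). The treated range of miR-183-5p began just above control replicate 17, and its call was lost without control replicate 16, control replicate 18 or middle dose replicate 39. For each of the 3, replicate 39 was the highest treated rat.

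The growth-linked clusters around miR-17 to miR-92a, which are driven by Myc and E2F factors, moved by small steps. All 17 tested members had a positive log2 fold change under each of the 4 scalings, with a median of 0.52. Of the 17, 6 were higher DEMs, against 20.9% of all tested miRNAs. An edgeR adjusted p-value below 0.05 was found for 4 of the 6. On library size alone 14 were higher DEMs, and with TMM normalization 4. With all 12 controls pooled, 14 of the 17 had a positive log2 fold change, the median was 0.23 and 2 were higher DEMs. With 11 controls pooled these values were 15, 0.21 and 3. miR-19a-3p rose from 55.5 ± 4.23 to 107 ± 29.1 normalized RPM (mean ± SD, n = 3 per group, log2 fold change 0.95, edgeR adjusted p = 0.00737) and miR-18a-5p from 8.77 ± 0.305 to 15 ± 1.71 (log2 fold change 0.78, edgeR adjusted p = 0.00941). miR-92a-3p, the most abundant member, was at a log2 fold change of 0.08. The call of miR-93-5p (log2 fold change 0.63, edgeR adjusted p = 0.0232) was lost under 9 of 19 alternatives, TMM normalization, DESeq2's size factors and leaving out control replicate 17, control replicate 18 or middle dose replicate 37 included. Of 7 tested members of the miR-15, miR-16, miR-195 and miR-497 group, both arms of miR-15b rose and miR-195-3p fell. The call of miR-15b-5p was lost without control replicate 18 or middle dose replicates 37 or 38, and that of miR-195-3p without control replicate 18 or middle dose replicates 37 or 39. Of 8 in the cluster of miR-322 and miR-503, 0 were DEMs with edgeR or DESeq2, and 0 had an unadjusted p-value below 0.05.

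Imprinted miRNAs of the Dlk1-Dio3 cluster, which are highly expressed before birth and low in adult liver, gave 4 higher DEMs and 0 lower among 8 tested. For all tested miRNAs the share of higher DEMs was 20.9%. miR-127-3p went from 15.3, 11.8 and 7.15 normalized RPM to 29.3, 64.2 and 42.1 (log2 fold change 1.96, SE 0.32, adjusted p = 0.00116 by edgeR). miR-411-5p went from 2.73, 1.29 and 3.21 to 4.58, 16 and 7.93 (log2 fold change 2.0, SE 0.46, adjusted p = 0.00884 by edgeR). Replicate 38 was the highest treated rat in both, and likewise for miR-541-5p and miR-136-3p. miR-434-3p, whose hairpin lies next to miR-127 and miR-136, was at 5.15, 2.95 and 5.69 and at 3.19, 5.79 and 2.86, so the groups overlapped. The controls of other time points were spread widely for these miRNAs. Against all 12 controls pooled, miR-411-5p was at a log2 fold change of -0.10 and miR-136-3p at -0.59, miR-127-3p and miR-541-5p lost their calls, and the median of the 8 was -0.65, against 1.06 with the 28-d controls.

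The rodent repeat-derived miR-466 family with miR-3559 gave 7 higher DEMs of 8 tested and a median log2 fold change of 1.02. Among all tested miRNAs 20.9% were higher DEMs. This list was built from earlier results of these data, so its count and median are no independent evidence. miR-466b-5p went from 5.06, 4.61 and 9.04 normalized RPM to 17.1, 19.8 and 17.4 (log2 fold change 1.57, edgeR adjusted p = 0.00116). miR-3559-5p went from 159, 162 and 187 to 401, 334 and 320 (log2 fold change 1.06, edgeR adjusted p = 0.00116). In both, every treated rat was above every control. miR-466b-2-3p and miR-466b-4-3p were listed with identical counts in all 6 libraries and therefore stand for the same reads. Both are counted among the 7 DEMs. The assignment of reads among the near-identical copies of this family is uncertain.

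**Figure D3:**
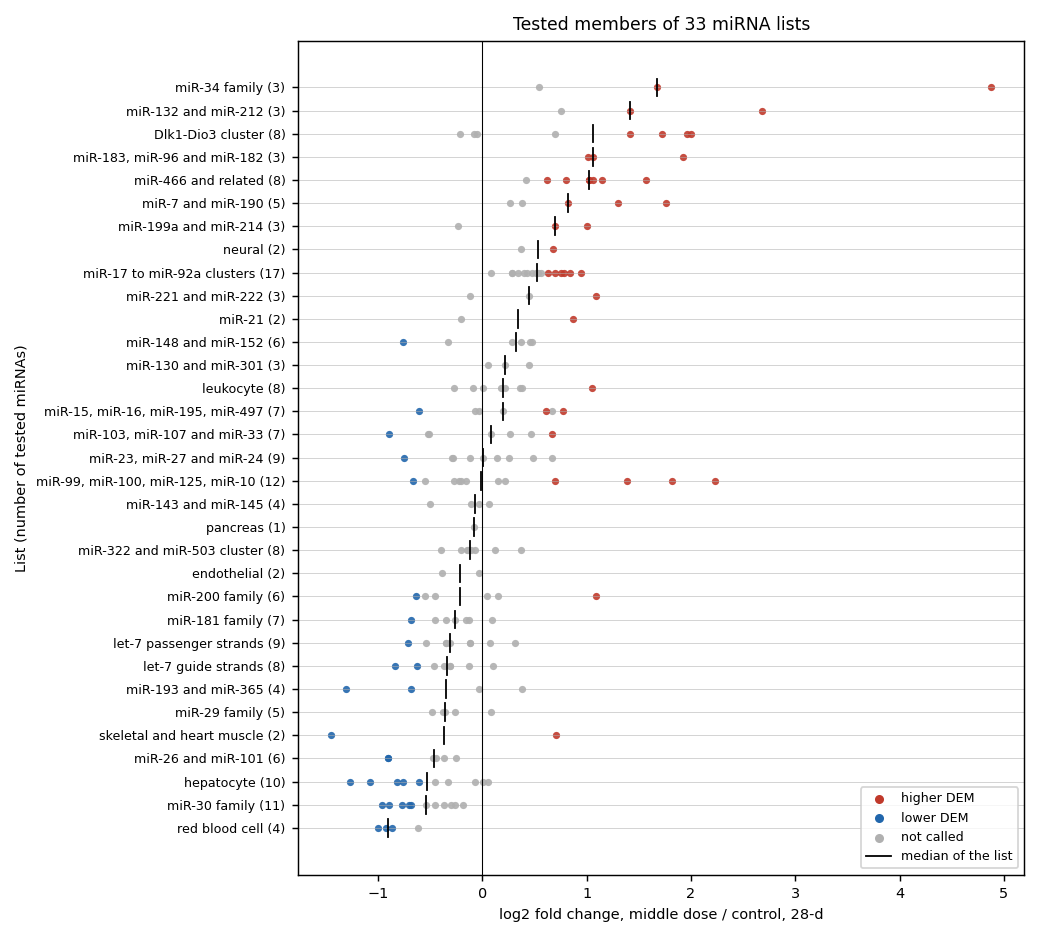
Log2 fold change of the middle dose over control for each tested member of 33 miRNA lists, 1 row per list with the number tested in parentheses, red for higher DEMs, blue for lower DEMs, grey for miRNAs that were not called and a black bar for the list median. Lists are ordered by their median, from -0.90 for red blood cell miRNAs to 1.67 for the miR-34 family.

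Fibrosis and injury miRNAs gave a mixed picture. miR-21-5p, raised in many injured tissues, was at 56829, 40393 and 48694 normalized RPM in the controls and at 47464, 35081 and 44637 in the treated rats, and was not a DEM (edgeR adjusted p = 0.363). The other arm, miR-21-3p, rose from 222 ± 19.7 to 406 ± 89.9 (mean ± SD, n = 3 per group, log2 fold change 0.87, edgeR adjusted p = 0.00843). Of the 3 tested members of the stellate cell and fibroblast cluster of miR-199a and miR-214, miR-199a-5p and miR-214-3p rose, with log2 fold changes of 0.70 and 1.00 (edgeR adjusted p = 0.0156 and 0.019), and miR-199a-3p was at -0.23. Without control replicate 16 the call of miR-199a-5p was lost. That of miR-214-3p was lost with all 12 or with 11 controls pooled. On the scale of all 48 libraries miR-214-3p was at 9.93 to 22.3 normalized RPM in the 28-d controls and at 27.1 to 40.9 in the treated rats. In 8 controls of other time points it was at 19.5 to 39.6. Of 4 miR-143 and miR-145 members, markers of smooth muscle and stellate cells, 0 were DEMs with edgeR or DESeq2, and miR-145-5p alone had an unadjusted p-value of 0.0294 at a log2 fold change of -0.50. miR-221-5p rose (log2 fold change 1.09, edgeR adjusted p = 0.00737), whereas miR-221-3p and miR-222-3p were at 0.45 and -0.12. In the miR-200 family of epithelia and bile ducts, miR-200c-3p rose from 5.86 ± 0.753 to 12.4 ± 1.34 normalized RPM (mean ± SD, n = 3 per group, log2 fold change 1.09, edgeR adjusted p = 0.00265) and miR-429 fell (log2 fold change -0.64, edgeR adjusted p = 0.025), and miR-200a-3p was at -0.55. The call of miR-429 was lost without control replicate 17.

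Marker miRNAs of other cells were examined beside these results. All 4 tested red blood cell miRNAs had negative log2 fold changes with a median of -0.90, and miR-486, miR-144-3p and miR-144-5p fell. Lower DEMs made up 12% of all tested miRNAs. miR-486 was at 4011, 2539 and 4546 normalized RPM in the controls and at 2777, 2046 and 1232 in the treated rats, so the groups overlapped (log2 fold change -0.87, edgeR adjusted p = 0.0382). Without control replicate 18 the calls of miR-486 and miR-144-5p were lost. That of miR-144-3p was lost with all 12 or with 11 controls pooled. On the scale of all 48 libraries miR-144-3p was at 92.5 to 159 normalized RPM in the 28-d controls and at 41.3 to 80.9 in the treated rats. In 8 controls of other time points it was at 39.4 to 90.8. Of the 4, 1 was a lower DEM with all 12 controls pooled and 3 were with 11. Summed over the list, plain RPM was 2786 to 4642 in the controls and 1677 to 3394 in the treated rats. Of 8 tested leukocyte miRNAs, miR-146b-5p rose (from 354, 228 and 182 to 532, 445 and 611 normalized RPM, log2 fold change 1.05, edgeR adjusted p = 0.00919), while miR-142-3p, miR-155-5p and miR-150-5p were at 0.36, 0.38 and -0.27, and the median was 0.20. The summed plain RPM of the leukocyte list was 5033 to 6056 in the controls and 6517 to 8470 in the treated rats. Of the 15 muscle miRNAs, 8 had no read in the 6 libraries, miR-1-3p had 1 read in control replicate 16 alone and miR-206-3p had none. Of the 2 that were tested, miR-133a-3p fell from 11 ± 1.89 to 4.02 ± 1.05 normalized RPM (mean ± SD, n = 3 per group, log2 fold change -1.45, edgeR adjusted p = 0.00166) and miR-499-5p rose (log2 fold change 0.71, edgeR adjusted p = 0.0316), a call that was lost without control replicate 16. In the neural list, miR-138-5p rose (log2 fold change 0.68, edgeR adjusted p = 0.0371) but lost its call without control replicates 16 or 18 or middle dose replicate 38, and miR-124-3p had 0 to 2 raw reads in each library. The endothelial miR-126a arms and the pancreatic miR-375-3p were not DEMs. The part of these cell types in the other results was not tested.

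miR-455-3p varied widely among the controls. It was at 61.9, 155 and 79.8 normalized RPM in the controls and at 45.4, 96 and 40.4 in the treated rats. The groups overlapped, and it was not a DEM (log2 fold change -0.71, SE 0.38, adjusted p = 0.158 by edgeR).

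The remaining lists held few DEMs. Of 9 tested members of the miR-23, miR-27 and miR-24 clusters, miR-23b-3p fell (log2 fold change -0.75, edgeR adjusted p = 0.0104), of 7 miR-181 members miR-181a-2-3p fell (log2 fold change -0.68, edgeR adjusted p = 0.0204), and of 6 miR-148 and miR-152 members miR-148a-5p fell (log2 fold change -0.76, edgeR adjusted p = 0.0204). Of 7 metabolic miRNAs around miR-103, miR-107, miR-33 and miR-378, miR-107-3p rose (log2 fold change 0.67, edgeR adjusted p = 0.0363) and miR-378a-5p fell (log2 fold change -0.89, edgeR adjusted p = 0.00801). Of 3 miR-130 and miR-301 members, 0 were DEMs with edgeR or DESeq2, and 0 had an unadjusted p-value below 0.05. Calls were lost without control replicate 18 for miR-107-3p and miR-148a-5p, and without middle dose replicate 37 for miR-181a-2-3p. The median log2 fold change was between -0.36 and 0.32 in the lists of miR-29, let-7 passenger strands, miR-193, miR-181, miR-200, miR-322, miR-143, miR-23, miR-103, miR-15, miR-130 and miR-148, and those of miR-181, miR-200, miR-322 and miR-143 turned from negative to positive on library size alone. The 33 lists together covered 69 of the 99 DEMs and 194 of the 301 tested miRNAs.

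The arms of a hairpin come from the same precursor. Both arms were tested for 81 hairpins. Of these, 11 had both arms called in the same direction, 0 had arms called in opposite directions, and 28 had a call for only 1 arm. The called arm was the abundant arm for miR-99a, where miR-99a-5p rose and miR-99a-3p was at a log2 fold change of 0.22, and for miR-193a, where miR-193a-3p fell and miR-193a-5p was at -0.03. It was the rare arm for miR-21, where miR-21-3p rose at a control level of 222 normalized RPM against 48639 for miR-21-5p, and for miR-148a and miR-26b. A call in 1 arm only does not show that the arms differ, which was not tested. Neighbouring hairpins and shared seeds were counted only over tested miRNAs whose sequence was matched by name. Of 28 sets of such hairpins within 10 kb of each other, 19 held a DEM. Of the 28, 1 held DEMs of both directions, that of miR-99b, let-7e and miR-125a. The higher DEM miR-99a-5p had no match, so the set of miR-99a-3p was counted as holding no DEM. Sequences matched 83 of the 99 DEMs. Of 31 seeds shared by several matched miRNAs, 4 were shared by more than 1 matched DEM. These were the seeds of miR-34a, miR-99b, let-7 and the miR-30c passenger strands. Of the 31, 0 had matched DEMs in both directions. DEMs without a matched sequence, such as miR-429, miR-99a-5p, miR-30b-5p and miR-30d-5p, were not counted, so both counts are incomplete. Over all 301 tested miRNAs, 20.9% were higher and 12% lower DEMs. Whether the counts of arms, sets or seeds differ from what these shares give was not tested.

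**Figure D4:**
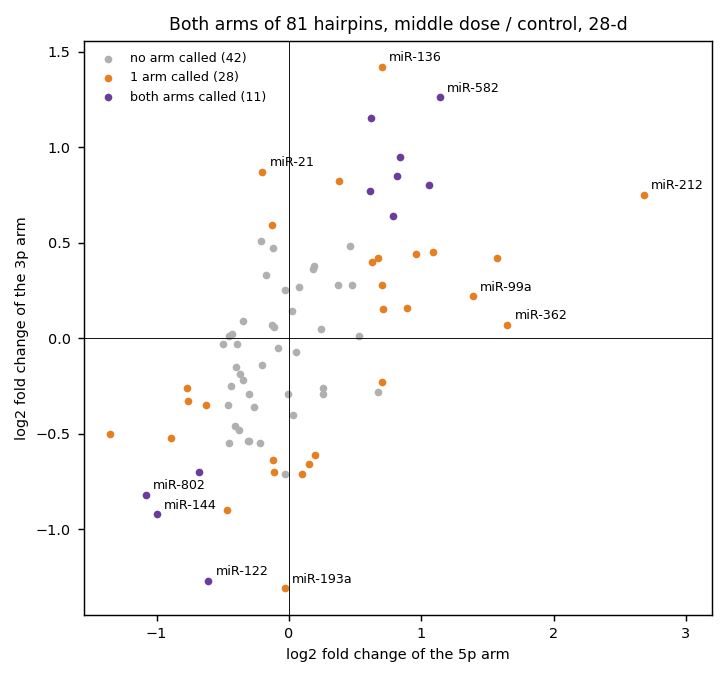
Log2 fold change of the 3p arm against that of the 5p arm for the 81 hairpins with both arms tested, middle dose over control at 28-d, in purple where both arms were DEMs (11), orange where 1 was (28) and grey where neither was (42). No purple point has arms of opposite sign, and miR-99a, miR-362 and miR-193a lie near an axis.

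The controls used here were set beside 8 controls of the other time points, with all 48 libraries on a single scale and without control 3-d replicate 1, which held only 293331 reads. The treated rats lay outside the range of these controls in the direction of the change for 36 of the 63 higher and 18 of the 36 lower DEMs. Of all 301 tested miRNAs, 57 lay above that range (18.9%) and 44 below it (14.6%). miR-34a-5p was at 423 to 768 normalized RPM in the treated rats and at 22.9 to 51.7 in the other controls. miR-501-3p was at 43.4 to 46.7 against 6.11 to 14.7. For miR-193a-3p the 28-d controls were themselves high, at 443 to 550 against 228 to 396 in the other controls, and the treated rats, at 174 to 229, overlapped the latter. For miR-133a-3p the values were 9.44 to 13.3 in the 28-d controls, 2.54 to 11.6 in the other controls and 2.92 to 5.01 in the treated rats. miR-802-5p and miR-203a-3p likewise overlapped with the other controls.

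Against the low dose at the same time point (3 rats, direct contrast in a fit of the 12 libraries at 28-d), the middle dose had 43 higher (14.3%) and 16 lower miRNAs (5.32%) by the DEM rule, and 12 and 1 of them had an edgeR adjusted p-value below 0.05. Of the 63 higher DEMs, 31 were also higher than at the low dose (10 after adjustment), and of the 36 lower DEMs, 9 were also lower (1 after adjustment), in comparisons that share the middle dose rats. Low dose replicate 29 stood apart from the other low dose rats, with the lowest miR-100-5p (114 against 880 and 928), miR-99a-5p (944) and miR-501-3p (7.37) and the highest miR-34a-5p (527, all on the scale of 48 libraries). The count depended on single rats, with 39 in all without low dose replicate 29 and 38 without middle dose replicate 39, and the split was 25 higher and 28 lower with DESeq2's size factors and 30 and 24 with TMM normalization. miR-127-3p was at 29.9, 42.9 and 65.6 normalized RPM (scaled over all 48 libraries, in increasing order) at the middle dose and at 8.31, 8.62 and 9.96 at the low dose, a log2 difference of 2.36 (SE 0.36, adjusted p = 0.00663 by edgeR). Its range in the 8 controls of other time points, 10.1 to 85, held the middle dose rats and lay just above the low dose rats. miR-191a-5p was at 18403, 20386 and 23029 against 9818, 10510 and 11371 (log2 difference 0.96, edgeR adjusted p = 0.00957). miR-141-3p, a miR-200 family member that was not a DEM against the controls, was at 126, 131 and 146 against 52.2, 66.9 and 76.5 (log2 difference 1.04, edgeR adjusted p = 0.00798). The low dose rats lay below the 28-d controls, which were at 104 to 134. They lay within the range of the 8 controls of other time points, at 43.9 to 107, whereas the middle dose rats lay above it. Among lower miRNAs, miR-802-3p was at 316, 319 and 368 against 439, 573 and 658 (log2 difference -0.73, edgeR adjusted p = 0.0385). miR-34a-5p was at 423, 646 and 768 against 182, 205 and 527 (log2 difference 1.01, SE 0.43, adjusted p = 0.138 by edgeR).

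Against the high dose, the middle dose had 35 higher (11.6%) and 35 lower miRNAs (11.6%), and 20 and 16 of them had an edgeR adjusted p-value below 0.05. With library size alone the split was 54 and 17, and with TMM normalization 38 and 26. Of the 63 higher DEMs of the middle dose, 30 were also above the high dose (17 after adjustment) and 1 was below it, and of the 36 lower DEMs, 19 were also below the high dose (8 after adjustment), again with the middle dose rats shared. miR-501-3p was at 43.4, 45.1 and 46.7 normalized RPM (scaled over all 48 libraries) at the middle dose, at 6.47, 8.36 and 9.57 at the high dose and at 8.29 to 13 in the 28-d controls (log2 difference between the doses 2.47, SE 0.42, adjusted p = 0.00482 by edgeR). miR-99a-5p was at 3127, 4213 and 4225 at the middle dose, at 1094, 1184 and 1274 at the high dose and at 1421 to 1541 in the controls (log2 difference 1.70, edgeR adjusted p = 0.00789). miR-100-5p was at 926, 1174 and 1250 at the middle dose, at 232, 239 and 273 at the high dose and at 222 to 259 in the controls (log2 difference 2.17, edgeR adjusted p = 0.0213). miR-6329 was at 113, 129 and 189 against 50.7, 62.4 and 62.4, with controls at 34.7 to 44 (log2 difference 1.30, edgeR adjusted p = 0.00482). miR-34a-5p was at 423, 646 and 768 against 74.8, 170 and 186, with controls at 14.9 to 24.9 (log2 difference 2.09, SE 0.44, adjusted p = 0.0111 by edgeR). At the high dose, the rats thus overlapped with the 28-d controls for miR-501-3p and miR-100-5p, lay below them for miR-99a-5p and above them for miR-6329 and miR-34a-5p. For miR-99a-5p the high dose rats lay within the range of the 8 controls of other time points, at 811 to 1489.

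Among miRNAs that were lower than at the high dose, miR-22-3p was at 127971, 129953 and 141359 normalized RPM at the middle dose and at 198260, 206102 and 207375 at the high dose, close to the 28-d controls at 202576 to 237556 (log2 difference -0.62, SE 0.09, adjusted p = 0.00324 by edgeR). The imprinted miR-434-3p was at 2.92, 3.25 and 5.91 at the middle dose and at 11.9, 15.2 and 16.7 at the high dose (log2 difference -1.86, edgeR adjusted p = 0.00482), and miR-136-5p at 0.523, 0.531 and 0.949 against 2.74, 2.85 and 4.39 (log2 difference -2.29, edgeR adjusted p = 0.00324). Neither was a DEM of the middle dose against the controls, and miR-127-3p of the same cluster did not pass the rule between these doses (log2 difference 0.47, edgeR adjusted p = 0.343). In the 8 controls of other time points, on the same scale, miR-434-3p was at 2.73 to 44.7 and miR-136-5p at 0.109 to 4.04. These ranges held the rats of both doses, except the highest high dose rat for miR-136-5p.

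**Figure D5:**
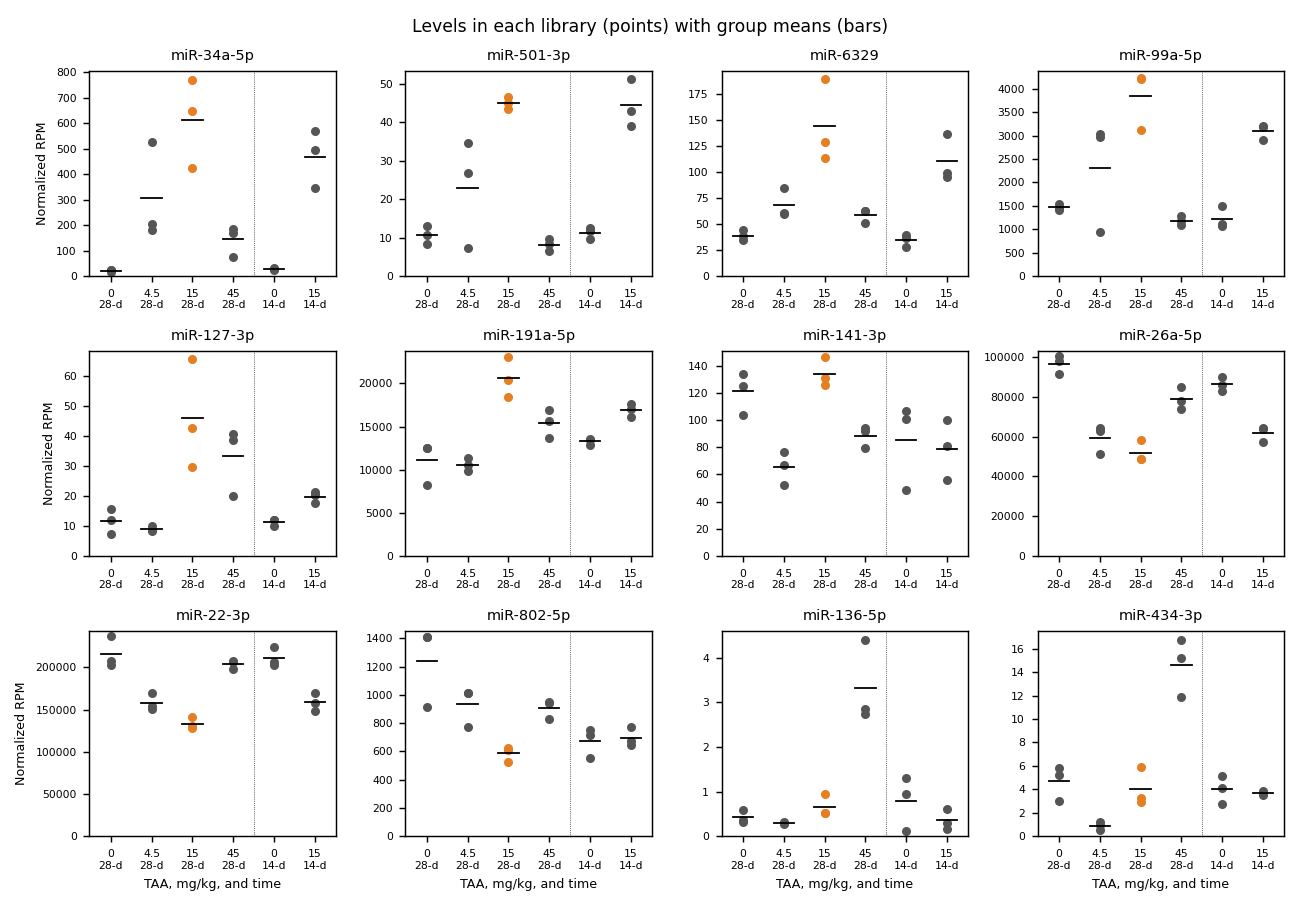
Normalized RPM (scaled over all 48 libraries) of 12 miRNAs in each rat (points, 3 per group) with group means (bars), for vehicle and 4.5, 15 and 45 mg/kg at 28-d and, right of the dotted line, vehicle and 15 mg/kg at 14-d; middle dose 28-d rats are orange. At 28-d, miR-501-3p and miR-99a-5p are high at the middle dose and overlap with or lie below the 28-d controls at the high dose. miR-136-5p and miR-434-3p are higher at the high dose than at the middle dose.

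To ask whether the effect of the middle dose had changed since the preceding time point, the log2 fold change at 28-d was compared with that at 14-d (3 treated rats and 3 controls at each, as an interaction). By the DEM rule 18 miRNAs had a higher (5.98%) and 11 a lower effect at 28-d (3.65%). With edgeR adjusted p-values below 0.05 there were 0, with 40 at an unadjusted p-value below 0.05 and 26 by the DEM rule with DESeq2's Wald test. The smallest p-values were those of miR-203a-3p (difference of log2 fold changes -0.85), miR-802-5p (-1.12) and miR-378a-3p (-0.68), each with an edgeR adjusted p of 0.0656. The 28-d controls of miR-802-5p were at 913 to 1409 normalized RPM (scaled over all 48 libraries) and the 14-d controls at 554 to 755, whereas the treated rats were at 528 to 626 at 28-d and 644 to 772 at 14-d, so the controls moved more than the treated rats. Among those with a higher effect at 28-d, miR-21-3p was at 309 to 472 in the treated rats at 28-d and 182 to 200 at 14-d, with controls at 204 to 242 and 161 to 247 (difference of log2 fold changes 1.00, edgeR adjusted p = 0.082). miR-214-3p and miR-127-3p had differences of 1.17 and 1.18 (edgeR adjusted p = 0.208 and 0.252). The effect on miR-501-3p, miR-100-5p and miR-99a-5p differed by 0.10, -0.17 and 0.05 between the time points, with standard errors of 0.26, 0.24 and 0.21.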

How the data were processed

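Liver miRNA-seq libraries were made from total RNA and sequenced on an Illumina HiSeq2000. After adaptor trimming to reads of 18 to 25 bases, the authors used miRDeep2 with miRBase release 21 for quantification, and they deposited raw counts for each pair of mature miRNA and precursor. These counts were not normalized, filtered or pooled. The submitters' processing notes name FastQC and the genome build rn5. A mature miRNA on several precursors was represented by the row with the most reads. The members and lists were chosen with earlier results of these data known, and the lists of miR-466 and of miR-7 and miR-190 were built from them, so they are no independent evidence.

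The 6 libraries were fitted alone by the quasi-likelihood F-test of edgeR 4.0.16 under R 4.3.3, scaled by the upper quartile (DEM: p-value below 0.05 and fold change above 1.5), and all 301 tested miRNAs entered the Benjamini-Hochberg adjustment. Both dose contrasts used the 12 libraries at 28-d, and the interaction the 12 middle dose and control libraries at 14-d and 28-d. Each SE is the log2 fold change divided by the square root of F. The labels do not say how rats were allotted, so p-values measure the spread between these rats. Exact permutation of 3 rats against 3 cannot give less than 0.1 and was left out. A count of 3 corresponds to 0.209 to 0.391 RPM in these libraries, which covers counting error only. Depth is the number of counted miRNA reads, and ligation and amplification differ between miRNAs, so levels of different miRNAs are not molar amounts.

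Named miRNAs are those the paper names, 12 DEMs in each direction by p-value among those without overlap, the 5 most abundant, up to 4 per list by p-value, and the 3 per direction with the smallest p-values in each further contrast. Others were chosen after their values were seen (miR-34a-3p, miR-30c-1-3p, miR-125a-5p, miR-99a-3p, miR-92a-3p, miR-1-3p, miR-124-3p, miR-206-3p, both let-7g arms, both miR-466b 3p entries and the members of the miR-532 cluster). Alternatives were TMM normalization, DESeq2 size factors and Wald test (DESeq2 1.42.0), library size alone, other filters, pooled controls, larger fits, summed precursor rows and each library left out. The tests were tested on simulated data. Mature sequences of 270 tested miRNAs were matched by name in RefSeq (GRCr8). Those of the others are not shown. Python 3.11.15, pandas 2.3.3 and matplotlib 3.10.9 were used for tables and figures.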

Additional observations from a re-analysis of the deposited data

Results flagged for a closer look

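Treated groups at 28-d were compared by a direct test between doses (edgeR quasi-likelihood test, adjusted p-value below 0.05, 3 rats per group). Of 128 named miRNAs, 12 differed between the middle and the low dose and 27 between the middle and the high dose. Over all 301 tested miRNAs these counts were 13 and 40. Some of the 128 were named for their small p-values in these same contrasts, so the counts among them are not independent of that choice. The 12 differences described above are given here, 10 of them chosen by the smallest p-values in each direction, whereas miR-34a-5p and miR-100-5p were chosen after their values were seen. Between the middle and the low dose, the log2 difference was 2.36 for miR-127-3p, 1.04 for miR-141-3p, 0.96 for miR-191a-5p and -0.73 for miR-802-3p. Between the middle and the high dose, it was 1.30 for miR-6329, 2.47 for miR-501-3p, 1.70 for miR-99a-5p, -0.62 for miR-22-3p, -2.29 for miR-136-5p, -1.86 for miR-434-3p, 2.09 for miR-34a-5p and 2.17 for miR-100-5p. The middle dose rats did not overlap with the other dose in any of these 12. Because the 12 were chosen by p-value or after their values were seen, this is no further evidence. miR-136-5p was rare, at 0.523 to 0.949 normalized RPM in the middle dose rats and 2.74 to 4.39 in the high dose rats. For miR-127-3p, miR-434-3p and miR-136-5p, the middle dose rats lay within the range of the 8 controls of other time points.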

How the results depend on the processing

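The count of 99 DEMs was between 67 (all 12 controls pooled) and 140 (no filter, 588 miRNAs tested), and between 85 and 102 with each library left out. In the higher class, 63 became 100 on library size alone. In the lower class, 36 became 15 on library size alone, 70 without a filter and 17 with all 12 controls pooled. Against the low dose, 59 became 13 with Benjamini-Hochberg adjusted p-values and 38 to 77 with a library left out. Against the high dose, 70 became 117 without a filter and 36 with adjusted p-values. For the difference between 28-d and 14-d, 29 became 54 without a filter, 0 with adjusted p-values and 16 in a fit of all 48 libraries. With controls of other time points pooled, the sign of the log2 fold change turned for 22 of 128 named miRNAs with all 12 controls and for 18 with the 11 left after dropping control 3-d replicate 1, an alternative chosen after seeing the data. In both, 3 of these were DEMs against the 28-d controls. Their log2 fold changes were -0.15 and -0.10 for miR-15b-5p, -0.10 and -0.07 for miR-411-5p, and -0.59 and -0.61 for miR-136-3p. The cause was not tested. No paired analysis was possible because the groups compared share no replicate number. Among the 12 higher DEMs named for their p-values, 0 lost the call under any alternative that tested them, whereas 9 of the 12 lower ones lost it under at least 1, mostly pooled controls or library size alone. Depth limits miRNAs such as miR-212-5p, with 3 to 9 raw reads in the controls.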
